A study of Mus musculus with 4 samples.

Results

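The genes described here carry out major histocompatibility complex (MHC) class I antigen presentation. They are the 9 genes H2-K1, H2-D1, B2m, Tap1, Tap2, Tapbp, Psmb8, Psmb9 and Nlrc5, out of the 22913 genes listed for each library. They were chosen by their known roles in the pathway, with earlier results of these data known. All 9 had a row in every library. The tissue was dermal white adipose tissue (dWAT), the fat layer around the lower hair follicles, microdissected from the skin of C57BL/6 mice. There was 1 library for each of 4 groups: old mice in telogen (OTD, 18 months), young mice in telogen (YTD, 2 months), old mice in depilation-induced anagen (OAD, 18 months) and young mice in depilation-induced anagen (YAD, 2 months). Telogen is the resting phase and anagen the growth phase of the hair cycle, and per the study's methods the tissue of 20 mice stood behind each group. No genetic change is given for any group, and the anagen groups differed from the telogen groups in depilation as well as in phase.

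Nearly every nucleated cell displays peptides from its own proteins on MHC class I molecules, which CD8 T cells inspect. The proteasome cuts proteins into peptides, the TAP transporter carries these into the endoplasmic reticulum, and tapasin helps load them onto a heavy chain paired with beta-2-microglobulin. Interferon gamma raises most genes of the pathway, and NLRC5 is a transactivator of class I promoters.

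With 1 library per group, no difference between groups could be tested, and no p-value or standard error is given. Levels are FPKM, fragments scaled to gene length and library size, as deposited. A change is the difference of log2(FPKM + 1) between 2 libraries, and a fold is the ratio of the FPKM values with a rough 95% exact (Clopper-Pearson) counting interval, which covers counting error only and no variation between mice. The counting intervals rest on an estimated depth of 20800000 to 24200000 fragments per library. Each age contrast shares a library with each phase contrast (OTD enters the age contrast in telogen and the phase contrast in old mice, for example), so the contrasts are not independent of each other.

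Several measures of the whole libraries moved with the groups. For YTD and OAD the age field of the labels disagreed with their titles and descriptions, which were followed here. The share of all summed FPKM that mitochondrially encoded genes took was 52.7%, 44.7%, 18.3% and 14.4% in OTD, YTD, OAD and YAD. The dissection was to leave out the subcutaneous fat and the panniculus carnosus, a muscle sheet. The summed FPKM of 15 skeletal muscle genes was 80361, 126518, 18609 and 14093 in OTD, YTD, OAD and YAD, and that of 14 hair shaft genes was 263, 479, 28264 and 23135. Adipocyte markers were present in all libraries, with Adipoq, the gene of the fat cell hormone adiponectin, at 427, 280, 103 and 76.5 FPKM in OTD, YTD, OAD and YAD. In bulk tissue, fewer cells of a type and less RNA per cell cannot be told apart.

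In telogen, 8 of the 9 class I genes were higher in the old than in the young library, by up to 1.88-fold for B2m, and the exception was Nlrc5, which was higher as well on TPM (FPKM rescaled to an equal sum in every library) without mitochondrially encoded genes. In anagen all 9 were higher in the old library, by 1.14-fold to 1.71-fold, with Tapbp at -0.040 and so on the other side of 0 once FPKM was rescaled to TPM. As deposited, the contrast between phases was larger, with B2m, Psmb8 and Psmb9 at least 4.03-fold lower in anagen than in telogen at both ages. On TPM their log2 changes were smaller, at -1.16, -1.501 and -1.30 in young mice and -1.90, -1.87 and -1.86 in old mice. The median of all 9 on TPM was -0.18 for phase in young and -0.54 in old mice, beside 0.52 for age in telogen. Tap1 and Nlrc5 were then higher in anagen at both ages. Of the 9 genes, 8 had the same order of levels, OTD above YTD above OAD above YAD, as deposited, by the median of ratios and on TPM without mitochondrially encoded genes, but on TPM of all genes 3 did (B2m, Psmb8 and Psmb9). Nlrc5 had another order under each of these scalings, as deposited OAD above YTD above OTD above YAD. Of the 27 steps between neighbouring libraries in these orders as deposited, 4 were within the counting error: YTD and OAD for Tap1, OAD and YAD for Psmb9, and OAD, YTD and OTD for Nlrc5.

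**Figure D1:**
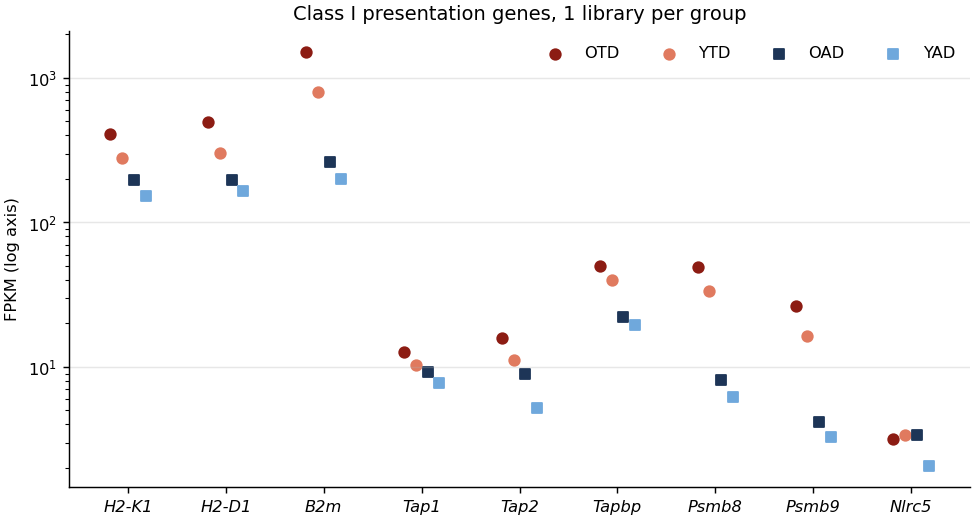
FPKM on a log axis for each of the 9 genes, with 1 point for each library (circles telogen, squares anagen; OTD and OAD old, YTD and YAD young) and no error bar, since there was 1 library per group. For 8 genes (3 on TPM) the points descend from OTD through YTD and OAD to YAD, from 1513 to 199 for B2m, whereas those of Nlrc5 lie between 2.06 and 3.41.

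Of the members, 7 lie on chromosome 17 of GRCm38, in the order Tapbp, H2-K1, Psmb9, Tap1, Psmb8, Tap2 and H2-D1, while B2m lies at chr2:122147686-122153083 and Nlrc5 at chr8:94472763-94527272. The stretch from Psmb9 (chr17:34181988-34187764, minus strand) through Tap1 (chr17:34187553-34197225, plus strand) and Psmb8 (chr17:34197721-34201454) to Tap2 (chr17:34203527-34216321) holds 4 of them. The listed spans of Psmb9 and Tap1 overlap by 212 bases on opposite strands, and whether strand was used in counting is not given in the sources used here, so reads from that overlap cannot be told apart.

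The sequences before the starts of a heavy chain gene and of B2m are shown because these genes encode the partners of the displayed molecule and were among the 3 with the highest levels, and because they hold the letters of the elements known in class I promoters. They come from RefSeq promoter windows of build GRCm38.p6 and end before every annotated start: chr17:34000348-34000547 on the minus strand for H2-K1 and chr2:122147486-122147685 on the plus strand for B2m. Capitals mark matches on either strand, where N is any base and hyphens only split the letters, to GGGA-NNNN-CC (like sites of NF-kappa B), GAAA-NN-GAAA (the core of the interferon stimulated response element), TGACG (letters of the sites of CREB and ATF factors) and CCAAT (the box of NF-Y, here also in its reverse complement ATTGG).
H2-K1: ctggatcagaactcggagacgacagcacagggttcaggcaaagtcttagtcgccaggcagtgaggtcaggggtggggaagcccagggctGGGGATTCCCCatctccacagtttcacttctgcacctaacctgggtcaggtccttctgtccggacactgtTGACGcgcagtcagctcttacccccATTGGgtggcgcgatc
B2m: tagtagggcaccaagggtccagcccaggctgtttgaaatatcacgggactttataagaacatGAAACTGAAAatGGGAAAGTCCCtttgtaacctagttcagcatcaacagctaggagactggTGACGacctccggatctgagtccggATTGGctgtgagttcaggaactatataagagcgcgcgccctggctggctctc
Both stretches run through the NF-kappa B like letters, TGACG and ATTGG in the same order, and in B2m GAAA-NN-GAAA comes first. Only exact matches are marked, so an unmarked stretch may still hold an element with slightly different letters. In H2-K1 these lie from 111 to 12 bases before the outer start, and in B2m from 139 to 49 bases before the RefSeq start. The 200 bases before the RefSeq start of H2-D1 aligned with those of H2-K1 over 139 bases with 91.4% identity, and their longest common run was 46 bases.

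RefSeq promoter windows, from 250 bases before to 50 bases after a start, were found for 7 of the 9 members. Tap2 and Nlrc5 had none. CCAAT was in the windows of 6 of the 7 members against 37.4% of all 32851 windows, and TGACG in 5 against 20.8%. GGGA-NNNN-CC was in 3 (H2-K1, H2-D1 and B2m) against 20.7%. TATAAA, the letters of the TATA box, was in 4 against 13.6%. These letters lay 26 to 21 bases before the start in H2-D1 and 237 to 232 in Psmb8. In H2-K1 they lay after the start, and in B2m 152 to 147 bases before it on the reverse strand. GAAA-NN-GAAA was in 1, that of B2m, against 3.44% of all windows, and TTC-NNN-GAA, the gamma activated site, in 1, that of Psmb8, against 8.30%. The windows of Psmb9 and Tap1 overlap, and their CCAAT and TGACG matches are the same letters of the genome counted for both genes. GGGA-NNNN-CC matched on both strands at overlapping positions. A match describes the letters in the window and not binding, and elements with slightly different letters are not counted.

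H2-K1 and H2-D1 encode the classical heavy chains, and B2m the light chain that they pair with. H2-K1 stood at 409, 280, 196 and 152 FPKM in OTD, YTD, OAD and YAD. H2-D1 stood at 492, 301, 197 and 165 FPKM in OTD, YTD, OAD and YAD. B2m had the highest level of the 9 in every library, at 1513, 803, 263 and 199 FPKM in OTD, YTD, OAD and YAD. In rough fragments, not scaled to length, B2m was below H2-D1 in YTD, OAD and YAD. Each of the 3 was highest in OTD and lowest in YAD, and both telogen values lay above both anagen values, which on TPM held for B2m but not for H2-K1 and H2-D1, where OAD lay above YTD.

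Between old and young in telogen, H2-K1 was 1.46-fold higher (counting interval 1.42 to 1.51), H2-D1 was 1.63-fold higher (1.59 to 1.68) and B2m was 1.88-fold higher (1.83 to 1.94). Among 12982 genes that reached an FPKM of 1 in a telogen library, the change of B2m ranked 378 from the top. In anagen the old library was 1.29-fold higher for H2-K1 (1.24 to 1.35), 1.199-fold for H2-D1 (1.15 to 1.25) and 1.32-fold for B2m (1.24 to 1.41). The age difference in telogen exceeded that in anagen by 0.18 for H2-K1, 0.45 for H2-D1 and 0.51 for B2m on the log2 scale, which was not tested.

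As deposited, anagen levels of these genes were lower than telogen levels at both ages, while on TPM the heavy chains hardly differed between phases in young mice. For B2m the level in telogen was 4.03-fold that in anagen in young mice and 5.75-fold in old mice, where its change of -2.52 ranked 206 from the bottom of 13847 genes, and on TPM its changes were -1.16 and -1.90. The heavy chains differed less between phases, with changes of -0.88 for H2-K1 and -0.87 for H2-D1 in young mice and -1.06 and -1.31 in old mice. On TPM these became -0.039 and -0.025 in young mice and -0.44 and -0.70 in old mice. Within a library no scaling between libraries enters, though the listed length does. There the 2 heavy chains summed to 59.5%, 72.3%, 149% and 159% of the FPKM of B2m in OTD, YTD, OAD and YAD. The 2 heavy chains stayed close to each other, with H2-D1 at 120%, 108%, 101% and 109% of H2-K1. Class I heavy chain genes resemble one another, and 8.79% of the 50-base windows of the H2-K1 transcript and 11.98% of those of H2-D1 also occur in another H2 gene, so part of their reads may be shared between genes.

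Tap1 and Tap2 encode the subunits of the peptide transporter, and Tapbp encodes tapasin. Tap1 was at 12.7, 10.3, 9.27 and 7.77 FPKM in OTD, YTD, OAD and YAD. Tap2 was at 15.9, 11.1, 8.91 and 5.22 FPKM in OTD, YTD, OAD and YAD. Tapbp was at 49.97, 39.7, 22.1 and 19.4 FPKM in OTD, YTD, OAD and YAD. Of the 3, Tapbp had the highest level in each library, and Tap1 the narrowest range, 1.64-fold from highest to lowest.

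In telogen the old library was 1.24-fold higher for Tap1 (counting interval 1.10 to 1.40), 1.43-fold for Tap2 (1.28 to 1.61) and 1.26-fold for Tapbp (1.17 to 1.36). In anagen Tap2 was 1.71-fold higher in the old library (1.46 to 2.00), rank 352 of 13068 genes and the largest age change of the 9 in that phase. Tap1 was 1.19-fold higher (1.04 to 1.37), and Tapbp 1.14-fold higher (1.02 to 1.27), with its change at -0.040 on TPM. The FPKM of Tap1 was 79.9%, 92.3%, 104% and 149% of that of Tap2 in OTD, YTD, OAD and YAD, so the subunits did not keep 1 ratio across the libraries.

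Between phases Tapbp differed by -0.997 in young and -1.14 in old mice and Tap2 by -0.96 and -0.77. On TPM these became -0.18 and -0.54 for Tapbp and -0.22 and -0.21 for Tap2. Tap1 differed by -0.36 in young and -0.42 in old mice, and its direction depended on the scaling, since on TPM these became 0.40 and 0.15.

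Psmb8 and Psmb9 encode inducible catalytic subunits that replace the standard subunits Psmb5 and Psmb6 in the immunoproteasome. Psmb8 was at 49.1, 33.8, 8.17 and 6.19 FPKM in OTD, YTD, OAD and YAD. Psmb9 was at 26.3, 16.3, 4.14 and 3.29 FPKM in OTD, YTD, OAD and YAD. Both had wide gaps between telogen and anagen, with the highest library 7.92-fold and 7.98-fold above the lowest. The anagen values of Psmb9 rested on only about 66.2 fragments in OAD and 49.2 in YAD.

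In telogen Psmb8 was 1.45-fold higher in the old library (counting interval 1.31 to 1.61) and Psmb9 1.61-fold higher (1.36 to 1.91). In anagen Psmb8 was 1.32-fold higher (1.04 to 1.69). For Psmb9 the anagen ratio of 1.26 had an interval from 0.857 to 1.86, so a difference was not detectable at this depth. The level of Psmb8 in telogen was 5.45-fold that in anagen in young and 6.01-fold in old mice, and that of Psmb9 was 4.96-fold and 6.34-fold. On TPM the log2 changes were -1.501 and -1.87 for Psmb8 and -1.30 and -1.86 for Psmb9.

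The genes of 14 standard proteasome subunits had median phase changes of -0.17 in young and 0.092 in old mice, or 0.67 and 0.70 on TPM. Psmb5 was at 135, 209, 185 and 177 FPKM in OTD, YTD, OAD and YAD, so that the old telogen library was its lowest. As a share of its standard partner, Psmb8 was 36.3%, 16.1%, 4.42% and 3.51% of Psmb5 in OTD, YTD, OAD and YAD. Psmb9 was 11.5%, 5.55%, 1.89% and 1.58% of Psmb6 in OTD, YTD, OAD and YAD. The third inducible subunit gene, Psmb10, was 17.7%, 11.3%, 8.32% and 8.93% of Psmb7 in OTD, YTD, OAD and YAD. All 3 shares were highest in OTD and second in YTD. Over all 14 standard subunit genes, 2 were higher and 12 lower in the old telogen library, with a median change of -0.18 that became 0.043 on TPM without mitochondrially encoded genes.

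**Figure D2:**
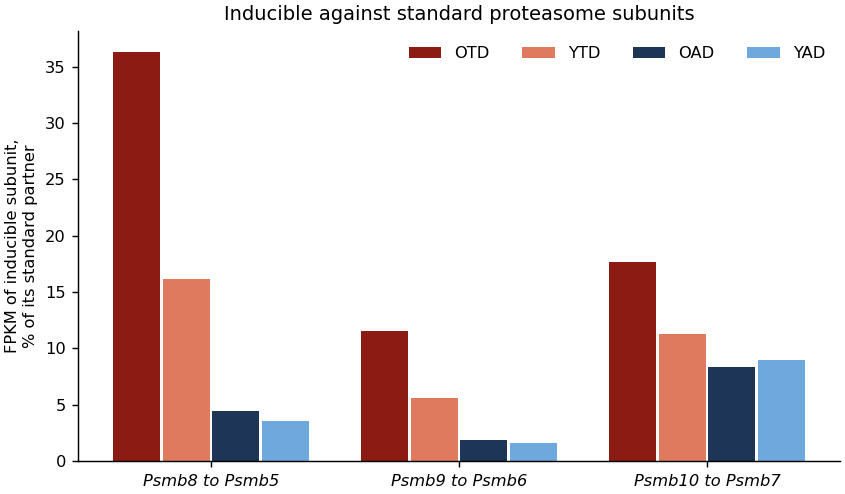
FPKM of each inducible proteasome subunit gene as a percentage of the FPKM of the standard subunit gene it replaces, 1 bar per library and no error bar. The bars of Psmb8 fall from 36.3% in OTD to 3.51% in YAD and those of Psmb9 from 11.5% to 1.58%, while those of Psmb10 range from 17.7% to 8.32%.

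Nlrc5 encodes a transactivator of class I genes. It had the lowest level of the 9 genes in every library, at 3.16, 3.37, 3.41 and 2.06 FPKM in OTD, YTD, OAD and YAD. As deposited, YAD was the lowest and the other libraries lay close together, while on TPM OTD was the lowest. In telogen the ratio of old to young was 0.938 (counting interval 0.815 to 1.08), a change of -0.071 that became 0.11 on TPM without mitochondrially encoded genes. In anagen the old library was 1.66-fold higher (1.42 to 1.93), rank 608 of 13068 genes. Between phases Nlrc5 differed by -0.52 in young mice, or 0.10 on TPM, and by 0.083 in old mice, or 0.55 on TPM and -0.053 on TPM without mitochondrially encoded genes.

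As a group, the 9 genes had a median age change of 0.53 in telogen, where the median of all 17230 genes compared was -0.029. None of the 9 passed a log2 change of 1, which 3.6% of all genes passed in either direction. At a change of 1.5-fold on the same scale, 3 of the 9 (H2-D1, B2m and Psmb9) were higher in the old library, against 6.75% of all genes. Of any size, 8 of 9 were higher, against 45.8% of all genes. The group was therefore above the centre of all genes by changes that were mostly under 1.5-fold.

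In anagen the median age change of the 9 was 0.35, beside 0.00 for all 17613 genes compared. None passed a change of 1, which 1.18% of all genes did in either direction, and 1 (Tap2) passed 1.5-fold, against 2.98% of all genes. All 9 were higher in the old library, against 50% of all genes. On TPM 8 of 9 were higher, with Tapbp lower, and then 25.3% of all genes were higher.

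Between phases the median was -0.96 in young mice and -1.14 in old mice, beside 0.016 and 0.013 for all genes compared. In young mice 3 of the 9 (B2m, Psmb8 and Psmb9) were lower in anagen by a change of at least 1, as were 16.7% of the 17622 genes compared. With a pseudocount of 0.1 or 0.01, 5 of the 9 were, and the share over all genes was not computed there. All 9 were lower by any size, against 48.8%, with Tap1 and Nlrc5 higher on TPM. In old mice 6 of the 9 were lower by at least 1, against 15.6% of 17712 genes, namely H2-K1, H2-D1, B2m, Tapbp, Psmb8 and Psmb9. On TPM 3 of the 9 were, and the share over all genes was not computed there. By any size 8 of 9 were lower, against 49% of all genes, with Nlrc5 the exception, on TPM Tap1 higher as well, and on TPM without mitochondrially encoded genes Nlrc5 lower too.

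**Figure D3:**
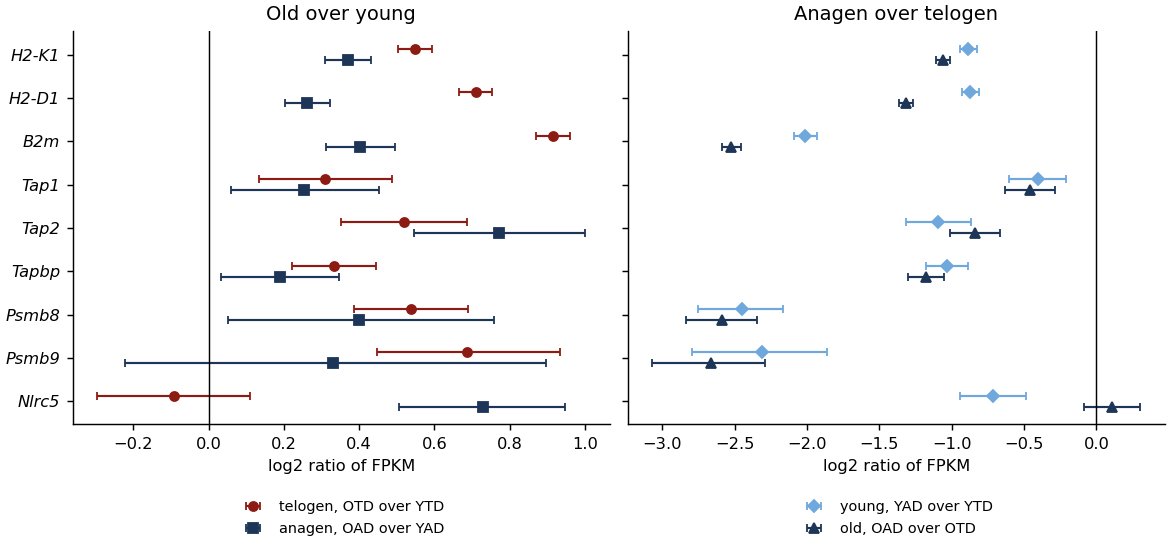
Log2 ratio of FPKM for each gene, old over young on the left and anagen over telogen on the right, with rough 95% counting intervals as bars (counting error only, 1 library per group). On the left the points run from -0.093 to 0.91 and those of Nlrc5 in telogen and Psmb9 in anagen have intervals that include 0. On the right B2m, Psmb8 and Psmb9 lie at -2.01 or lower in both contrasts, while Tap1 lies at -0.40 and -0.46 and turns positive on TPM, and Nlrc5 lies at -0.71 and 0.11 and changes sign with the scaling.

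The size of the phase contrast depended on how libraries were scaled. TPM of all genes moved the median of all genes to -0.16 for age in anagen, 0.45 for phase in young mice and 0.32 for phase in old mice. Relative to these, the median of the 9 genes was 0.30, -0.63 and -0.86, where with FPKM as deposited it was 0.35, -0.98 and -1.15 relative to all genes. In telogen the age difference relative to all genes was 0.55 as deposited and 0.55 on TPM. Without mitochondrially encoded genes, TPM moved the median of all genes to -0.12 for age in anagen and 0.11 for phase in young mice, and the 9 genes stood at 0.32 and -0.91 relative to it. With the muscle, hair shaft and keratin-associated genes also left out, the median of all genes for phase in young mice was 0.12 and that of the 9 genes was -0.93 relative to it. TPM lowered the share of genes that were lower in anagen from 48.8% to 30.6% in young and from 49% to 34.4% in old mice. Without mitochondrially encoded genes the share higher in old was 60.9% in telogen and 30.5% in anagen.

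**Figure D4:**
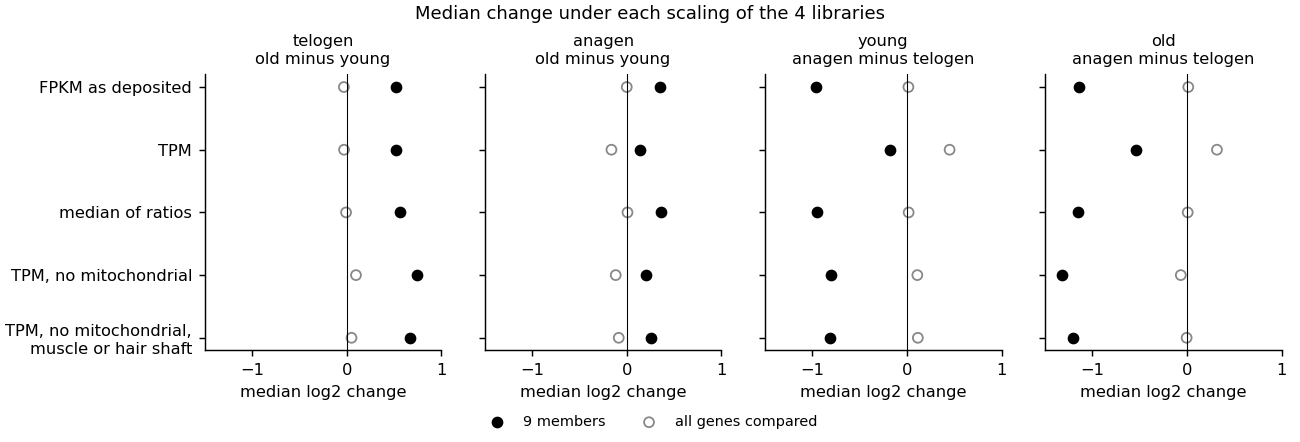
Median log2 change of the 9 class I genes (filled) and of all genes compared (open) under 5 scalings, 1 panel per contrast and no error bar. The filled points lie above the open ones in both age panels and below them in both phase panels, from 0.53 as deposited to 0.75 on TPM without mitochondrially encoded genes for age in telogen, and from -0.96 to -0.18 on TPM for phase in young mice.

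Other genes of the pathway did not share one pattern. The list of 12 held further proteasome, trimming, chaperone and translocon genes, of which 8 were higher and 4 lower in the old telogen library (median 0.13) and 6 were higher and 6 lower in anagen (median 0.0080, or -0.22 on TPM). The chaperone gene Calr was at 81.0, 96.6, 244 and 245 FPKM in OTD, YTD, OAD and YAD. Pdia3, whose product works in the loading complex, was at 62.6, 47.6, 129 and 127 FPKM. Both, like the translocon gene Sec61a1, were higher in anagen by a change of at least 1 at both ages. The share of all genes that rose by as much was not computed. Psmb10, in contrast, was at 35.6, 29.4, 12.2 and 12.6 FPKM, lower in anagen by changes of -1.16 and -1.48. Of the 12, 5 were higher and 7 lower in anagen in young mice, and 6 were higher and 6 lower in old mice. The median phase changes were -0.22 in young and -0.063 in old mice, or 0.62 and 0.55 on TPM.

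Non-classical and other class I-like genes had 21 rows, of which 18 were above 0 in a telogen library. In telogen 15 of these 18 were higher in the old library and 3 lower, with a median of 0.55. H2-T23, the gene of Qa-1, was at 96.9, 55.3, 19.6 and 16.7 FPKM in OTD, YTD, OAD and YAD. H2-Q4 was at 66.5, 38.5, 22.1 and 14.1 FPKM, in the same order of libraries as the classical heavy chains. H2-M9, at 9.93 FPKM in OTD and between 1.17 and 1.96 in the others, had the largest age change of the list in telogen, 1.88. In anagen 11 of 17 were higher in old and 6 lower (median 0.22), with H2-Q7 at 9.49 FPKM in OAD and 3.10 in YAD and H2-Q6 at 8.44 and 3.59. Shared 50-base windows made up 18.8% of the H2-Q6, 20.2% of the H2-Q7 and 39.7% of the H2-T22 transcript, so these counts are uncertain between genes. Between phases 10 of 19 compared in young mice and 13 of 18 in old mice were lower in anagen by at least 1. The shares over all genes were 16.7% and 15.6%. On TPM the median phase change moved from -1.14 to -0.58 in young mice and from -1.90 to -1.39 in old mice. For age in anagen on TPM, 9 of 17 were higher in old (median 0.053).

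Of the interferon genes, Ifng, which encodes interferon gamma, was listed at 0 in OTD, YTD and YAD and at 0.045 FPKM in OAD. The receptor gene Ifngr1 was at 55.3, 40.4, 13.1 and 14.9 FPKM in OTD, YTD, OAD and YAD, and Ifngr2 at 20.9, 33.9, 14.3 and 10.4. Irf1, whose product binds interferon stimulated response elements, was at 22.96, 17.5, 5.12 and 4.49 FPKM in OTD, YTD, OAD and YAD. As deposited, Irf1 thus had the order of libraries that 8 of the 9 class I genes had. The interferon gamma pathway list held 8 genes, of which 7 were above 0 in a telogen library. Of these 7, 3 were higher and 4 lower in the old telogen library (median -0.12). In anagen 4 of the 8 were higher and 4 lower in old (median 0.016, or -0.16 on TPM). Over the 16 transcription factors known at class I promoters, 9 were higher and 7 lower in the old telogen library (median 0.032), and 8 were higher and 8 lower in anagen (median 0.0072, or -0.20 on TPM).

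Interferon-inducible GTPase and guanylate-binding protein genes, which act in cell-autonomous defence, differed more between phases than the class I genes by their medians. Of 10 listed, 8 had a row, and all 8 were higher in the old telogen library, with a median of 0.55. In anagen 7 were higher in old and 1 lower (median 0.25), and on TPM 6 were higher and 2 lower (median 0.099). All 8 were lower in anagen by at least 1 at both ages, with medians of -2.18 in young and -2.50 in old mice. Iigp1 was at 30.6, 15.3, 2.64 and 2.15 FPKM in OTD, YTD, OAD and YAD, and Gbp2 at 22.8, 13.2, 3.18 and 2.19.

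Markers of other cells also differed between the libraries. MHC class II genes, expressed by antigen-presenting cells, summed to 758, 519, 74.8 and 84.0 FPKM in OTD, YTD, OAD and YAD. In telogen 7 of 7 were higher in the old library (median 0.59), and in anagen 1 was higher and 6 were lower (median -0.14). The general leukocyte markers summed to 133, 78.5, 9.34 and 12.3 FPKM, with 5 of 5 higher in old in telogen and 4 of 5 lower in anagen. The macrophage markers summed to 841, 519, 172 and 204 FPKM, with 11 of 12 higher in old in telogen and 12 of 12 lower in anagen. In anagen the class I genes and these leukocyte lists thus had age changes of opposite sign, and none of these markers was at 0 in any library. The part of these cells in the class I result was not tested.

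Endothelial and fat cell markers were higher in the old library in both phases by their medians. The 11 endothelial markers summed to 681, 445, 178 and 136 FPKM in OTD, YTD, OAD and YAD, and all 11 were higher in old in telogen (median 0.60) and in anagen (median 0.23). On TPM 8 of the 11 were higher in old in anagen (median 0.051). As deposited, all 11 were also lower in anagen by at least 1, against 16.7% of all genes in young and 15.6% in old mice. On TPM the median phase changes of these markers were -0.77 in young and -1.27 in old mice. The 11 adipocyte markers summed to 7916, 6549, 2755 and 1925 FPKM, with 7 higher in old in telogen (median 0.26) and 11 in anagen (median 0.31). On TPM 7 of the adipocyte markers were higher in old in anagen (median 0.088). Relative to adipocyte markers, the geometric mean of the 9 genes was 29.1%, 23.1%, 30.3% and 28.6% in OTD, YTD, OAD and YAD. Relative to endothelial markers it was 125%, 139%, 184% and 181%, relative to macrophage markers 276%, 267%, 534% and 279%, and relative to leukocyte markers 341%, 382%, 1579% and 994%. The ratio to macrophage markers was thus close in YTD and YAD and higher in OAD than in OTD. The part of these cell types in the class I result was not tested.

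The 14 markers of CD8 T and natural killer cells, the cells that read class I molecules, were near the floor of these data. They summed to 5.17, 4.68, 0.432 and 0.207 FPKM in OTD, YTD, OAD and YAD, and the highest single value was 1.02, for Cd2 in OTD. Cd8a was listed at 0 in OTD, OAD and YAD and at 0.303 FPKM in YTD. In OAD 8 and in YAD 10 of the 14 were listed at 0.

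**Figure D5:**
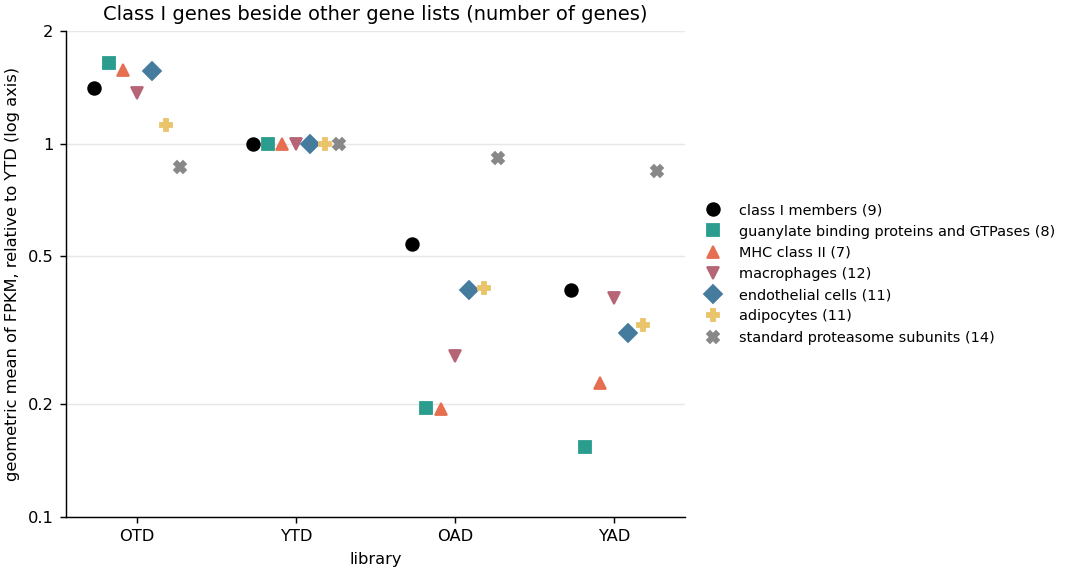
Geometric mean of FPKM of each gene list in each library, divided by that of YTD, on a log axis, with the number of genes above 0 in all libraries in brackets and no error bar. The 9 class I genes go from 61.5 FPKM in OTD and 43.6 in YTD to 23.4 in OAD and 17.6 in YAD, a smaller difference between phases than that of the GTPase and class II lists, while macrophage and class II points are lower in OAD than in YAD.

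The genes whose profile over the 4 libraries was closest to the mean profile of the 9 were Plvap (Euclidean distance 0.116), Blvrb (0.124), Fabp4 (0.134), Selenom (0.156) and Mcam (0.164), among 4328 genes that reached an FPKM of 10 in all libraries. The distance is between centred log2(FPKM + 1) values. Plvap, an endothelial gene, was at 174, 131, 75.8 and 58.5 FPKM in OTD, YTD, OAD and YAD. Fabp4, the fatty acid binding protein of fat cells, was at 2880, 1873, 1155 and 822 FPKM. Of the 9 genes, H2-D1 (0.250), Tapbp (0.264) and H2-K1 (0.305) lay nearest to the mean profile, and Nlrc5 (1.13), Psmb8 (1.09) and B2m (1.04) farthest from it. With 4 libraries this likeness is a description only.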

How the data were processed

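RNA from the microdissected dWAT of each group was sequenced as 1 library per group on an Illumina instrument. The authors deposited FPKM per gene. The submitters' processing notes name bcl2fastq, TopHat2 and GRCm38, and the counting tool, annotation and strand setting are not given in the sources used here. For all 9 members the listed length equals a coding length of the annotation, so FPKM is per kilobase of coding length, and a short gene such as B2m (360 bases) is sensitive to it. FPKM did not step in whole reads, and the depth of 20800000 to 24200000 fragments was estimated from the lowest values of features of 2000 to 4000 bases. Gene identifiers were mapped to symbols (21750 of 22913 matched). Changes used a pseudocount of 1 and no filter. They were computed with Python 3.11.15, pandas 2.3.3 and scipy 1.17.1, and sequences were aligned with biopython 1.88. A check on simulated data drew whole counts at the estimated depth. It therefore covered the calculation only, and not the depth or the intervals in these data. The genes named are the 9 members, genes of the pathway and marker lists, and the 5 nearest profiles. Members and lists were chosen with earlier results of these data known. Alternatives were pseudocounts of 0.1 and 0.01, a filter of FPKM of at least 1, TPM, the median of ratios, TPM without mitochondrially encoded genes (also without muscle, hair shaft and keratin-associated genes) and a threshold of 1.5-fold. With 1 library per group no test was possible. Gbp5, Gbp6 and Krt85 had no row.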

Additional observations from a re-analysis of the deposited data

Results flagged for a closer look

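The age change of Nlrc5 had opposite signs in telogen (-0.071) and anagen (0.53), a difference of -0.60 on the log2 scale, which was not tested since each group had 1 library. Its telogen sign changes with the scaling, and its telogen counting interval includes no change.

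Medians of gene lists also had opposite signs in the 2 phases, and none of these differences was tested. The age change in telogen minus that in anagen was 0.73 for MHC class II, 0.75 for leukocytes, 0.56 for macrophages and 1.203 for fibroblasts, which were higher in old in telogen and lower in anagen. It was -1.17 for hair shaft, -1.02 for skeletal muscle and -0.64 for epidermis, which were lower in old in telogen and higher in anagen. It was -0.26 for standard proteasome subunits, -0.43 for the 3 subunits that the inducible ones replace and -0.13 for the interferon gamma pathway, whose signs change in at least 1 phase under another scaling.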

How the results depend on the processing

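The limits are 1 library per group, an estimated depth and a mitochondrial share that differs with phase. Of 252 values of single genes under the alternatives, 185 moved by less than their counting interval, 60 moved by more and 7 changed sign. The median of the 9 genes kept its sign in all 4 contrasts under each scaling. On TPM the median was 0.14 for age in anagen, -0.18 for phase in young and -0.54 for phase in old mice, 3 genes passed a change of 1 for phase in old mice, and sign changed for Tapbp (-0.040, age in anagen), Tap1 (0.40 and 0.15, phase in young and old) and Nlrc5 (0.10, phase in young). On TPM without mitochondrially encoded genes the medians were 0.75 for age in telogen, -0.80 for phase in young and -1.32 for phase in old mice, 1 gene (B2m) passed 1 for age in telogen, Nlrc5 became 0.11 (age in telogen) and -0.053 (phase in old), and the median difference of the age change between phases, 0.18 as deposited, was 0.53. Without muscle, hair shaft and keratin-associated genes as well, the median was -0.81 for phase in young mice, 1 gene passed 1 for age in telogen, Nlrc5 was 0.039 there, and the difference was 0.40. Pseudocounts of 0.1 and 0.01 gave 5 and 5 genes past 1 for phase in young mice in place of 3. At 1.5-fold, 3, 1 and 7 genes passed for age in telogen, age in anagen and phase in young mice. No share over all genes was computed at 1.5-fold for phase. For a change of 1, shares over all genes were computed only for FPKM as deposited with a pseudocount of 1. The cause of these moves was not tested. No paired analysis was possible because each group had 1 library.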
